A study of Rattus norvegicus with 16 samples.

Results

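The carotid body, a small arterial chemoreceptor that senses blood oxygen, receives peptide signals through G protein-coupled receptors, and 10 receptor genes for neuropeptides and angiotensin were followed here. They are Sstr1, Sstr2 and Sstr4 (somatostatin receptors), Npy1r and Npy2r (neuropeptide Y receptors), Tacr1 and Tacr3 (tachykinin receptors), Adcyap1r1 (the PACAP receptor), Agtr1a (the type 1a angiotensin II receptor) and Galr1 (a galanin receptor). They were chosen by name, with earlier results of these data known. All 10 are among the 18166 genes with at least 1 probe that the array annotation assigns to a single gene. Where a gene had several, the probe with the highest mean over the 16 arrays was used. All samples came from Wistar rats of 9 to 11 weeks, with both carotid bodies mixed. The 4 groups, each with 4 arrays, were HNK-1+ neuroblasts of rats kept 3 days in hypoxic chambers, HNK-1+ neuroblasts of rats in ambient air, HNK-1- glomus cells of the hypoxic rats and HNK-1- glomus cells of the rats in ambient air. Each array received biotinylated cDNA made from 500 pg of total RNA. HNK-1, a sugar epitope of neural cells, was the only antibody named for the sort, so the negative fraction could hold any other carotid body cell. The oxygen level in the chambers is not given in the sources used here.

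Somatostatin, neuropeptide Y and galanin receptors couple mainly to inhibitory G proteins, which lower cyclic AMP and open potassium channels. Tachykinin receptors and the type 1 angiotensin receptor couple to Gq, which raises intracellular calcium, and the PACAP receptor couples to the stimulatory G protein. In the carotid body, glomus cells release transmitters and peptides in hypoxia, and angiotensin II, PACAP and substance P are known to excite its output. Several of these peptides are made by the cells themselves or by the nerves that reach them.

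Values are the authors' normalized log2 intensities, so a difference of 1 is a 2-fold change, and levels of different genes were not ranked against each other. An array's median over all probes serves only as a mark of weak signal. No background or detection values were used, so the size of a difference is uncertain where values lie near or below that mark. Tests are from limma with Benjamini-Hochberg adjustment over all 30429 probes, and a gene passed at an adjusted p under 0.05. Errors after ± are SDs over 4 arrays for group means and limma standard errors for differences, and brackets hold the 95% confidence interval. In bulk samples of this kind, fewer cells of a type and less RNA per cell cannot be told apart.

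The arrays differed in ways that touch every value. Array medians lay between 4.71 and 4.94 on hypoxic arrays and between 4.40 and 4.64 on normoxic arrays. The median difference over all probes was 0.25 in neuroblasts and 0.17 in glomus cells, hypoxic minus normoxic. The array of hypoxic neuroblast replicate 1 was least like its group (mean correlation over probes 0.914), while the other 15 had mean correlations of 0.949 or more. Array batches are not labelled, so a batch effect and an effect of oxygen cannot be told apart.

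The sorted populations were set against 8 lists of cell type markers. Of all probes, 1.82% passed between populations in normoxia and 0.283% in hypoxia. With hypoxia 18.4% of all probes were higher and 13.7% lower in neuroblasts, and 9.37% were higher and 9.5% lower in glomus cells. Of 9 glomus cell markers, 6 were lower in normoxic neuroblasts than in normoxic glomus cells, among them Slc18a1, a vesicular monoamine transporter (9.70 in normoxic neuroblasts and 11.73 in normoxic glomus cells), and the potassium channel gene Kcnk3 (6.41 in normoxic neuroblasts and 8.15 in normoxic glomus cells). Th, which encodes tyrosine hydroxylase, did not pass, at 12.29 in normoxic neuroblasts and 12.62 in normoxic glomus cells. With hypoxia 4 of the 9 rose and 3 fell in neuroblasts, and 1 rose and 3 fell in glomus cells. The mean level of 9 neuroblast markers was 6.34 to 6.79 in hypoxic neuroblasts, 7.51 to 8.03 in normoxic neuroblasts, 6.14 to 6.43 in hypoxic glomus cells and 6.44 to 6.63 in normoxic glomus cells. Of these 9 markers, 6 were higher in normoxic neuroblasts than in normoxic glomus cells, and 7 were lower in hypoxic than in normoxic neuroblasts. Macrophage markers averaged 4.45 to 4.96 in hypoxic neuroblasts, 4.03 to 4.63 in normoxic neuroblasts, 6.06 to 6.45 in hypoxic glomus cells and 4.89 to 6.62 in normoxic glomus cells, and 5 of 8 were lower in neuroblasts under each oxygen condition. Endothelial markers averaged 5.12 to 5.27 in hypoxic neuroblasts, 4.02 to 4.75 in normoxic neuroblasts, 6.10 to 7.16 in hypoxic glomus cells and 5.16 to 6.72 in normoxic glomus cells. Type II and glial cell markers averaged 6.31 to 6.64 in hypoxic neuroblasts, 5.41 to 5.99 in normoxic neuroblasts, 5.16 to 5.61 in hypoxic glomus cells and 4.33 to 5.14 in normoxic glomus cells. Uncentred, this mean was thus higher on every hypoxic array than on the normoxic arrays of the same population. The order does not hold once each array's median is subtracted. Hypoxic neuroblast replicate 1 had 6.31 with an array median of 4.94, and normoxic neuroblast replicate 2 had 5.99 with 4.57. Hypoxic glomus replicate 3 had 5.16 with 4.73, and normoxic glomus replicate 1 had 5.14 with 4.64. Of the 6 glial genes with a probe, 2 rose in neuroblasts and 1 in glomus cells, with S100b at 9.02 in hypoxic neuroblasts and 6.69 in normoxic neuroblasts. The mean levels of pericyte, fibroblast and peripheral neuron markers overlapped between hypoxic and normoxic arrays of each population. The part of these markers in the receptor results was not tested.

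Of the 4 receptor genes that passed a test, Sstr2 lost its hypoxia call in neuroblasts under 6 of 26 alternative ways of processing. The promoters of all 4 are shown because hypoxia can act on genes through the core of the hypoxia response element. Each is 300 bases from RefSeq's table (build GRCr8), from 250 before to 50 after the listed transcript start, written 5′ to 3′ on the gene's strand. Capitals mark matches on either strand to the letters ACGTG or GCGTG (forms of the hypoxia response element core) and TGACGTCA (the cAMP response element), and no matches overlapped in these 4 windows. All 10 members were found in the table, and the windows below lie at chr6:81567233-81567532 (Sstr1, plus strand), chr16:27813338-27813637 (Npy1r, minus strand), chr4:85923921-85924220 (Adcyap1r1, plus strand) and chr10:99163103-99163402 (Sstr2, plus strand).
Sstr1: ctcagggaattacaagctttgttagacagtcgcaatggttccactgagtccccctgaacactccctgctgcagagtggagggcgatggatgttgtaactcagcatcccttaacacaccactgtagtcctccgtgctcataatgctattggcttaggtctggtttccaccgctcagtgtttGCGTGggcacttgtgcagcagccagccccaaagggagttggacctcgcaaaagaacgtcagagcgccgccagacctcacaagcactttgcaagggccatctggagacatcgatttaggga
Npy1r: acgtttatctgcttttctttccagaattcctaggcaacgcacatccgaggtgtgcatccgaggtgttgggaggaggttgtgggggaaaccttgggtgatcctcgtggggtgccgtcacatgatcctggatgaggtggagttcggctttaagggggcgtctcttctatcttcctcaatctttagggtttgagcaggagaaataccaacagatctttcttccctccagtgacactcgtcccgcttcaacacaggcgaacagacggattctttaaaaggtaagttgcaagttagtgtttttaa
Adcyap1r1: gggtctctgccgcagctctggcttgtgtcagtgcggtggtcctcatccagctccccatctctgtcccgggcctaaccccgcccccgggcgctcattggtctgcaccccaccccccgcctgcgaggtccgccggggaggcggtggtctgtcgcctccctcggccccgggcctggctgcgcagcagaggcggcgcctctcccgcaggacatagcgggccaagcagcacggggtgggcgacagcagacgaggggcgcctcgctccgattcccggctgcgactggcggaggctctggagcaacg
Sstr2: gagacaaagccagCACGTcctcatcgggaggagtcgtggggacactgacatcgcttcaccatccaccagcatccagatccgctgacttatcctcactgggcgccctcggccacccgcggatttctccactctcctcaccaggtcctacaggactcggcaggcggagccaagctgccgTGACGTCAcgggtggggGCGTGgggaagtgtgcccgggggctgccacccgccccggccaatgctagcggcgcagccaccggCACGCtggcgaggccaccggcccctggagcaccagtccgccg

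The windows of Sstr1 and Npy1r lie almost wholly or wholly inside the annotated gene intervals given below, because the table's transcript start differs from the outermost gene boundary. The Sstr1 window held GCGTG, 70 bases before the listed transcript start, and the Npy1r and Adcyap1r1 windows held none of these letters. The Sstr2 window held 4 matches, among them TGACGTCA 73 bases before its listed start, a sequence found in 1.83% of 33469 promoters of this length. ACGTG or its complement was in 19.3% of them and GCGTG or its complement in 29.7%, so a match to either core was in 41.6% of all promoters. Of the other members, Sstr4 and Tacr1 also held a GCGTG match. The windows differed in base composition: GC content was 53.7% for Sstr1, 49% for Npy1r, 73% for Adcyap1r1 and 68.7% for Sstr2, with a median of 51.7% over all promoters.

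The study's design first asks what 3 days of hypoxia change in each population. In both populations Sstr1, Npy1r and Adcyap1r1 fell. In neuroblasts Sstr2 also rose. None of the other 6 members passed in either population. In neuroblasts 4 of 10 members passed, 1 higher and 3 lower, where 32.1% of all probes passed (18.4% higher and 13.7% lower). In glomus cells 3 of 10 passed, all lower, where 18.9% of all probes passed (9.37% higher and 9.5% lower). The groups did not overlap for 5 of 10 members in neuroblasts and 4 of 10 in glomus cells, against 28% and 26.4% of all probes. The median member difference was 0.16 in neuroblasts and 0.03 in glomus cells.

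**Figure D1:**
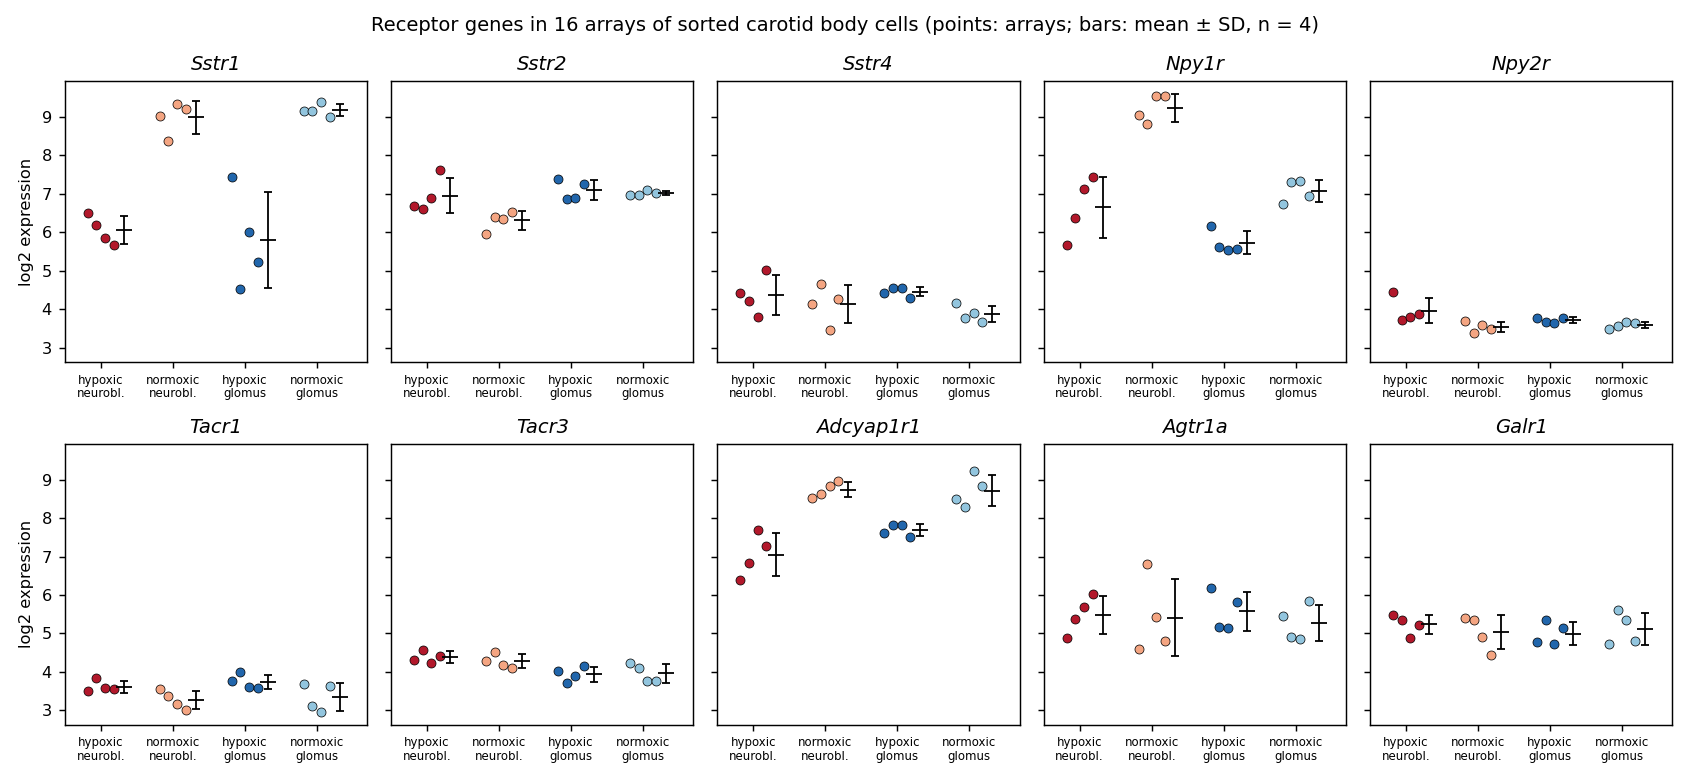
Normalized log2 intensity (vertical axis) of the 10 receptor genes on each of the 16 arrays, with hypoxic neuroblasts, normoxic neuroblasts, hypoxic glomus cells and normoxic glomus cells side by side. Points are arrays and bars are group means ± SD (n = 4); Sstr1, Npy1r and Adcyap1r1 sit lower on the hypoxic arrays of both populations, and Npy1r is highest in normoxic neuroblasts.

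Sstr1 (probe 17816003; gene at chr6:81567237-81571759, GRCr8) encodes an inhibitory somatostatin receptor. Its values were 6.51, 6.19, 5.84 and 5.68 in hypoxic neuroblasts, against 9.02, 8.37, 9.35 and 9.22 in normoxic neuroblasts. In hypoxic glomus cells they were 7.43, 4.52, 6.01 and 5.22, against 9.16, 9.17, 9.39 and 9.00 in normoxic glomus cells. All 8 hypoxic values lay below all 8 normoxic values, and the hypoxic glomus arrays spread most, with an SD of 1.25 against 0.16 in normoxic glomus cells. The value of 4.52 was the 1 of 16 below its array's median. The difference was -2.94 ± 0.42 [-3.83, -2.04] in neuroblasts, or 7.65-fold lower in hypoxia (adjusted p = 6.92e-05), and -3.38 ± 0.42 [-4.28, -2.49] in glomus cells, or 10.4-fold lower (adjusted p = 4.98e-05). The populations themselves differed by -0.19 [-1.09, 0.71] in normoxia and 0.26 [-0.64, 1.16] in hypoxia, and neither passed.

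Sstr2 (probe 17652375; chr10:99163353-99170519), the somatostatin receptor that binds many clinical analogs, did not follow Sstr1. It was at 6.69, 6.62, 6.89 and 7.63 in hypoxic neuroblasts, against 5.96, 6.40, 6.35 and 6.53 in normoxic neuroblasts. It was at 7.40, 6.87, 6.90 and 7.26 in hypoxic glomus cells, against 6.98, 6.98, 7.11 and 7.02 in normoxic glomus cells. The 2 neuroblast groups did not overlap, while the glomus groups did. The rise in neuroblasts was 0.65 ± 0.21 [0.20, 1.09] (adjusted p = 0.0277), and the difference in glomus cells was 0.08 [-0.36, 0.53] (adjusted p = 0.806). The test of the difference between these effects did not pass (0.56 [-0.07, 1.19], adjusted p = 0.774). With each array centred on its median the neuroblast difference was 0.37 and the call was lost (adjusted p = 0.305), and with quantile normalization it was 0.90 (adjusted p = 0.00169). The call was also lost without hypoxic neuroblast replicate 4, the array with the highest value (0.42, adjusted p = 0.0781), without normoxic neuroblast replicate 1 (0.53, adjusted p = 0.0805) and without normoxic neuroblast replicate 3 (0.66, adjusted p = 0.0505).

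Sstr4 (probe 17767054; chr3:156307992-156309855), a further inhibitory subtype, was above its array's median on 2 of 16 arrays. It was at 4.43, 4.56, 4.55 and 4.29 in hypoxic glomus cells, against 4.17, 3.77, 3.89 and 3.67 in normoxic glomus cells, with no overlap. The difference of 0.58 ± 0.25 [0.05, 1.12] did not pass (adjusted p = 0.122). It passed with array weights (0.64, adjusted p = 0.0353) and when only the arrays compared were fitted (adjusted p = 0.0187). Over all alternatives the glomus difference ranged from 0.34 to 0.68 (adjusted p from 0.0187 to 0.465). In neuroblasts the hypoxic values of 3.79 to 5.03 and the normoxic values of 3.47 to 4.65 overlapped.

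Npy1r (probe 17711269; chr16:27804416-27814070) encodes the Y1 receptor for neuropeptide Y. It was at 5.66, 6.37, 7.12 and 7.44 in hypoxic neuroblasts, against 9.05, 8.81, 9.54 and 9.55 in normoxic neuroblasts. It was at 6.17, 5.63, 5.55 and 5.57 in hypoxic glomus cells, against 6.75, 7.30, 7.33 and 6.94 in normoxic glomus cells. Neither pair overlapped, and the lowest normoxic neuroblast array lay above all 12 arrays of the other groups. Hypoxic neuroblasts were 6.02-fold lower than normoxic neuroblasts (-2.59 ± 0.31 [-3.24, -1.94], adjusted p = 1.18e-05), and hypoxic glomus cells 2.55-fold lower than normoxic glomus cells (-1.35 ± 0.31 [-2.0, -0.70], adjusted p = 0.0051). The difference between these effects was -1.24 ± 0.44 [-2.16, -0.32] and did not pass (unadjusted p = 0.0114, adjusted p = 0.581). In the ordering of the groups, only the top group stood clear: normoxic glomus cells overlapped with hypoxic neuroblasts, and hypoxic neuroblasts with hypoxic glomus cells.

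Npy2r (probe 17748262; chr2:170200027-170210286), the Y2 receptor known mainly as a presynaptic autoreceptor, stayed below the array median on all 16 arrays. It was at 4.44, 3.72, 3.79 and 3.88 in hypoxic neuroblasts, against 3.69, 3.38, 3.58 and 3.48 in normoxic neuroblasts. The groups did not overlap, by a margin of 0.03, and the difference of 0.42 ± 0.16 [0.08, 0.77] did not pass (adjusted p = 0.0535). Without hypoxic neuroblast replicate 2 it was 0.50 and passed (adjusted p = 0.0357). Over all alternatives the neuroblast difference ranged from 0.08 to 0.50 (adjusted p from 0.0357 to 0.753). In glomus cells the difference was 0.13 [-0.21, 0.47] (adjusted p = 0.599).

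Adcyap1r1 (probe 17783793; chr4:85924171-85972973) encodes PAC1, the selective receptor for PACAP. It was at 6.40, 6.84, 7.69 and 7.28 in hypoxic neuroblasts, against 8.52, 8.64, 8.84 and 8.97 in normoxic neuroblasts. It was at 7.61, 7.81, 7.83 and 7.52 in hypoxic glomus cells, against 8.49, 8.30, 9.22 and 8.83 in normoxic glomus cells. All 8 hypoxic values lay below all 8 normoxic values. The fall was 3.23-fold in neuroblasts (-1.69 ± 0.25 [-2.21, -1.17], adjusted p = 7.56e-05) and 2.02-fold in glomus cells (-1.02 ± 0.25 [-1.54, -0.50], adjusted p = 0.00739). The difference between these effects was -0.67 [-1.41, 0.06] and did not pass (adjusted p = 0.769).

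**Figure D2:**
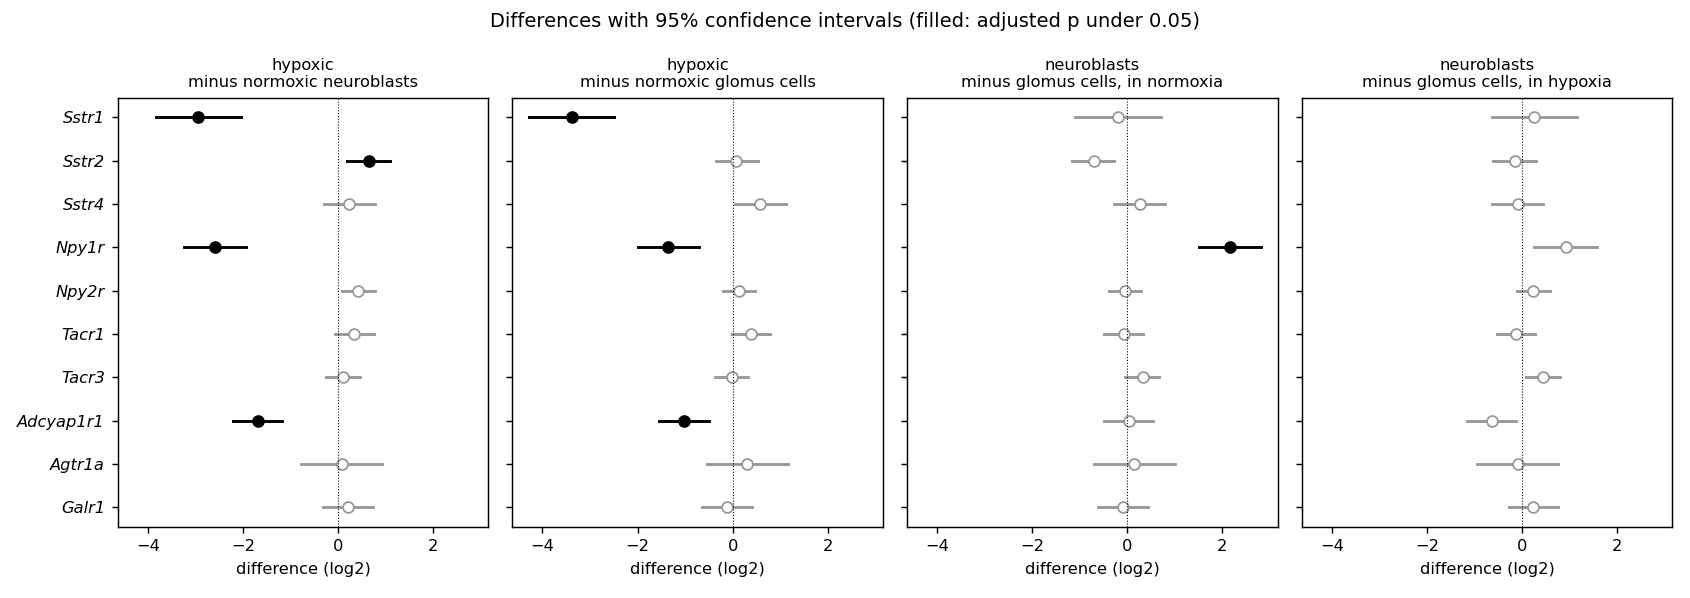
Log2 differences (horizontal axis) of the 10 receptor genes with 95% confidence intervals in 4 comparisons: hypoxic minus normoxic neuroblasts, hypoxic minus normoxic glomus cells, and the population difference, neuroblasts minus glomus cells, under each oxygen condition. Filled points passed an adjusted p under 0.05; the falls of Sstr1, Npy1r and Adcyap1r1 lie well left of 0 in both hypoxia panels.

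Tacr1 (probe 17784668; chr4:116478617-116647492), the receptor for substance P, and Tacr3 (probe 17742763; chr2:225940497-226037756), the receptor for neurokinin B, stayed below the array median on all 16 arrays. Tacr1 was at 3.49 to 3.85 in hypoxic neuroblasts, 3.00 to 3.55 in normoxic neuroblasts, 3.58 to 3.99 in hypoxic glomus cells and 2.96 to 3.69 in normoxic glomus cells. Its hypoxia differences of 0.34 [-0.06, 0.75] in neuroblasts and 0.39 [-0.02, 0.79] in glomus cells did not pass (adjusted p = 0.168 and 0.177). Tacr3 was at 4.31, 4.58, 4.23 and 4.42 in hypoxic neuroblasts, against 4.03, 3.70, 3.89 and 4.15 in hypoxic glomus cells. These populations did not overlap in hypoxia, but the difference of 0.44 ± 0.17 [0.09, 0.79] did not pass (adjusted p = 0.347). Its hypoxia differences were 0.10 [-0.25, 0.46] in neuroblasts and -0.02 [-0.37, 0.33] in glomus cells.

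Agtr1a (probe 17719191; chr17:34383397-34435523), the main type 1 angiotensin II receptor of rodents, ranged from 4.59 to 6.82 over the 16 arrays. It was at 4.87, 5.37, 5.69 and 6.02 in hypoxic neuroblasts, against 4.59, 6.82, 5.43 and 4.80 in normoxic neuroblasts. It was at 6.19, 5.17, 5.15 and 5.81 in hypoxic glomus cells, against 5.46, 4.91, 4.86 and 5.84 in normoxic glomus cells. All groups overlapped. The hypoxia differences were 0.08 [-0.78, 0.93] in neuroblasts (adjusted p = 0.888) and 0.31 [-0.54, 1.17] in glomus cells (adjusted p = 0.622). Normoxic neuroblast replicate 2 had the highest Agtr1a value and also the highest mean level of fibroblast markers, 8.92, and the part of those markers in its value was not tested. Without that array the neuroblast difference was 0.55 (adjusted p = 0.207).

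Galr1 (probe 17727348; chr18:78046803-78062359), an inhibitory galanin receptor, had the narrowest span of group means among the members, 0.24, while its single arrays ranged from 4.45 to 5.60. Its hypoxia differences were 0.21 [-0.31, 0.73] in neuroblasts (adjusted p = 0.511) and -0.12 [-0.64, 0.40] in glomus cells (adjusted p = 0.762).

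The second question of the design is how neuroblasts differ from glomus cells. In normoxia Npy1r was 4.46-fold higher in neuroblasts (2.16 ± 0.31 [1.5, 2.81], adjusted p = 0.00057), and it was the only member of 10 that passed, where 1.82% of all probes did. Sstr2 lay lower in normoxic neuroblasts on every array (-0.71 ± 0.21 [-1.16, -0.27]) but did not pass (adjusted p = 0.123), although it did without hypoxic neuroblast replicate 4 (adjusted p = 0.0375). That array enters only the shared estimate of spread, and the difference stayed at -0.71. Over all alternatives it ranged from -0.79 to -0.60 (adjusted p from 0.0375 to 0.395). Npy1r and Sstr2 were the 2 members whose populations did not overlap, against 7.39% of all probes. In hypoxia 0 of 10 members passed by limma, where 0.283% of all probes did, and 3 had an unadjusted p under 0.05, against 11.1% of all probes. These were Npy1r (0.92 ± 0.31, adjusted p = 0.282), Adcyap1r1 (-0.64 ± 0.25, adjusted p = 0.36) and Tacr3. Only Tacr3 did not overlap, against 4.48% of all probes. In the test of whether the hypoxia effect differs between populations, 0 of 10 members passed, where 0.0789% of all probes did, and only Npy1r had an unadjusted p under 0.05, against 6.62% of all probes.

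The 3 falls and the rise of Sstr2 in neuroblasts were also present without hypoxic neuroblast replicate 1. The neuroblast difference was -3.09 for Sstr1, -2.26 for Npy1r, -1.47 for Adcyap1r1 and 0.74 for Sstr2 without that array, and all 4 passed. With each array centred on its median the falls were -3.22 for Sstr1, -2.87 for Npy1r and -1.97 for Adcyap1r1 in neuroblasts, and -3.60, -1.56 and -1.23 in glomus cells. The rise of Sstr2 in neuroblasts was 0.37 with centred arrays and lost its call (adjusted p = 0.305).

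By root mean square distance of probe-centred values over the 16 arrays, with 17963 genes compared, Tbc1d13, Calcoco1 and Adgrl1 were nearest to Sstr1, at 0.68 to 0.76 log2 units against a median of 1.79. Slc10a4, Tmem35a and Lats2 were nearest to Npy1r, at 0.37 to 0.44 against a median of 1.45. Flot2, Gtf3c1 and Tnfaip1 were nearest to Adcyap1r1, at 0.21 to 0.22 against a median of 0.92. The points share arrays and the oxygen condition.

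Among the ligand genes, those for neuropeptide Y and neurokinin B rose in hypoxia in both populations, while the neuropeptide Y receptor gene Npy1r fell and the neurokinin B receptor gene Tacr3 did not pass. Npy, a peptide cotransmitter of catecholamine cells, was at 9.80, 10.33, 9.86 and 9.91 in hypoxic neuroblasts, against 7.47, 6.97, 7.55 and 7.21 in normoxic neuroblasts. It was at 9.34, 8.99, 9.34 and 9.33 in hypoxic glomus cells, against 6.99, 6.74, 6.49 and 7.40 in normoxic glomus cells. No hypoxic value overlapped a normoxic one, and the rise was 2.67 ± 0.20 in neuroblasts (adjusted p = 2.89e-07) and 2.35 ± 0.20 in glomus cells (adjusted p = 5.89e-06).

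Tac3, the neurokinin B precursor, was at 8.94, 8.60, 8.67 and 8.76 in hypoxic neuroblasts, against 4.37, 5.65, 4.36 and 5.06 in normoxic neuroblasts. It was at 10.84, 10.25, 10.18 and 10.25 in hypoxic glomus cells, against 8.04, 8.70, 6.97 and 6.74 in normoxic glomus cells. Each pair was fully apart. The rise was 3.88 ± 0.36 in neuroblasts (adjusted p = 1.23e-06) and 2.77 ± 0.36 in glomus cells (adjusted p = 6.75e-05). The 4.37 and 4.36 of normoxic neuroblasts lay below their arrays' medians, so the size of the neuroblast rise is uncertain. Tac3 was lower in normoxic neuroblasts than in normoxic glomus cells by 2.75 (adjusted p = 0.000263).

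Of the 13 ligand genes with a probe, 4 were higher and 0 lower in hypoxic neuroblasts, and 2 were higher and 0 lower in hypoxic glomus cells. Over all probes 32.1% passed in neuroblasts and 18.9% in glomus cells in either direction, and the list's shares that passed are near these. All of its calls were rises, and 18.4% of all probes were higher in neuroblasts and 9.37% in glomus cells. With so few genes, the counts were not read as a result about the list. The other 2 in neuroblasts were Ppy, which encodes pancreatic polypeptide (0.72, adjusted p = 0.00824), and Galp, which encodes galanin-like peptide (0.49, adjusted p = 0.0329), and both calls were lost when the arrays were centred or quantile normalized. The list's median difference was 0.30 in neuroblasts and 0.21 in glomus cells, against 0.25 and 0.17 for all probes. Sst, Adcyap1, Tac1, Pyy, Vip, Agt and Gal did not pass in either population. For example, the neuroblast differences were 0.30 for Sst (adjusted p = 0.147), 0.34 for Adcyap1 (adjusted p = 0.197) and 0.13 for Agt (adjusted p = 0.51). Cort had no single-gene probe.

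**Figure D3:**
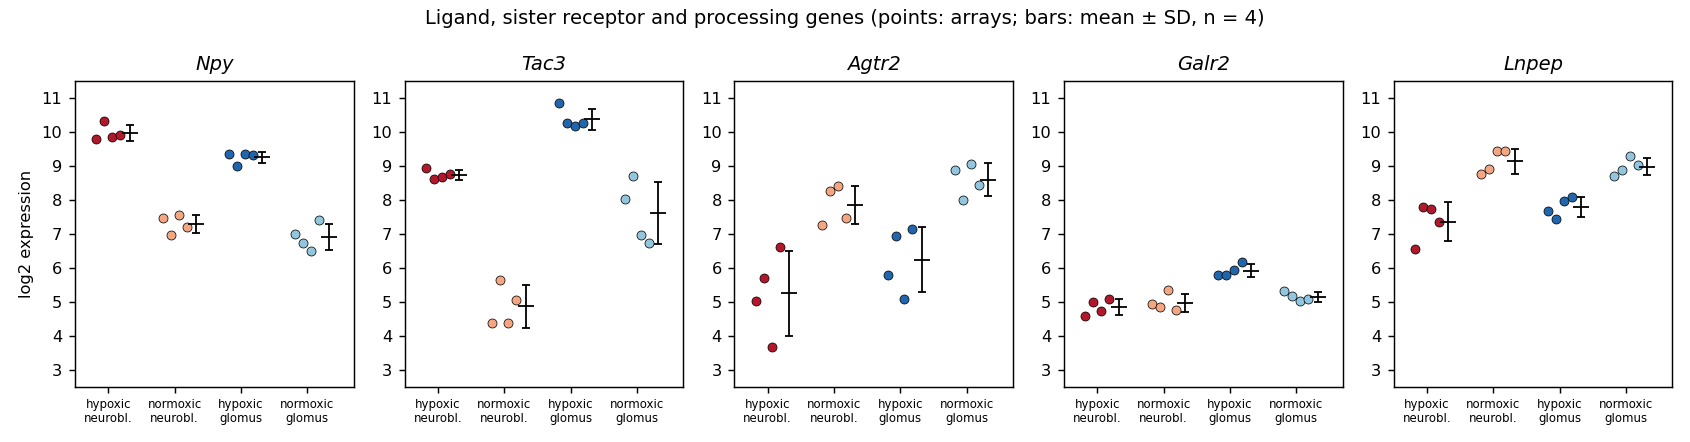
Normalized log2 intensity (vertical axis) of the ligand genes Npy and Tac3, the receptor genes Agtr2 and Galr2 and the aminopeptidase gene Lnpep on each of the 16 arrays, with hypoxic neuroblasts, normoxic neuroblasts, hypoxic glomus cells and normoxic glomus cells side by side. Points are arrays and bars are group means ± SD (n = 4). Npy and Tac3 are higher on all hypoxic arrays than on the normoxic arrays of the same population; Agtr2 and Lnpep are lower.

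Of the 9 sister receptor genes with a probe, 3 were higher and 1 lower in hypoxic neuroblasts, and 2 were higher and 1 lower in hypoxic glomus cells. Over all probes 18.4% were higher and 13.7% lower in neuroblasts, and 9.37% were higher and 9.5% lower in glomus cells. The list's median difference was 0.29 in neuroblasts and 0.26 in glomus cells. The gene that fell in both was Agtr2, the type 2 angiotensin receptor, which opposes many actions of the type 1 receptor. It was at 5.02, 5.70, 3.66 and 6.61 in hypoxic neuroblasts, against 7.26, 8.26, 8.40 and 7.46 in normoxic neuroblasts. It was at 5.80, 6.95, 5.09 and 7.13 in hypoxic glomus cells, against 8.87, 7.99, 9.07 and 8.43 in normoxic glomus cells. The groups were apart in both populations, at -2.60 ± 0.53 in neuroblasts (adjusted p = 0.00135) and -2.35 ± 0.53 in glomus cells (adjusted p = 0.00444). The 3.66 of hypoxic neuroblasts lay below its array's median of 4.77, so the size of the neuroblast fall is uncertain. Agtr1b, the near copy of Agtr1a in rodents, rose in neuroblasts by 0.69 ± 0.18 (adjusted p = 0.00756), a call lost when arrays were centred, and whether the array tells the 2 copies apart was not tested. Galr2, a galanin receptor that also couples to Gq, was at 5.78, 5.79, 5.92 and 6.18 in hypoxic glomus cells, against 5.32, 5.16, 5.01 and 5.07 in normoxic glomus cells. It rose by 0.78 ± 0.17 (adjusted p = 0.00402) and was lower in hypoxic neuroblasts than in hypoxic glomus cells by 1.07 (adjusted p = 0.00851, or 0.0909 when only the arrays compared were fitted), while its neuroblast difference was -0.12 (adjusted p = 0.582). The test of that difference between populations did not pass (adjusted p = 0.31). Npy5r in glomus cells (0.74, adjusted p = 0.0229) and Sstr3 (0.58, adjusted p = 0.0211) and Npy4r (0.66, adjusted p = 0.0236) in neuroblasts were the other rises, and all 3 calls were lost when arrays were centred.

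Of 5 angiotensin processing genes with a probe, Lnpep, the aminopeptidase that binds angiotensin IV, was the 1 that passed, in both populations. Over all probes 32.1% passed in neuroblasts and 18.9% in glomus cells, so 1 of 5 is near or below the background. Lnpep was at 6.55, 7.78, 7.73 and 7.36 in hypoxic neuroblasts, against 8.75, 8.91, 9.45 and 9.44 in normoxic neuroblasts. It was at 7.68, 7.44, 7.96 and 8.09 in hypoxic glomus cells, against 8.71, 8.87, 9.29 and 9.04 in normoxic glomus cells. The groups were apart in both populations. Lnpep fell by 1.78 (adjusted p = 6.88e-05) in neuroblasts and by 1.19 (adjusted p = 0.00357) in glomus cells. Ace, which makes angiotensin II, was at -0.75 ± 0.27 in hypoxic minus normoxic glomus cells (adjusted p = 0.0616). The glomus count was 2, against 1, without normoxic glomus replicate 2 or without hypoxic glomus replicate 1.

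Of 29 genes for G proteins, effectors and receptor kinases that these receptors use, 2 were higher and 13 lower in hypoxic neuroblasts, and 1 was higher and 11 lower in hypoxic glomus cells. Over all probes 13.7% were lower in neuroblasts and 9.5% in glomus cells. With centred arrays or quantile normalization 0 were higher in either population, and the lower ones numbered 13 in neuroblasts and 12 or 11 in glomus cells. The median difference was -0.47 in neuroblasts and -0.31 in glomus cells, against 0.25 and 0.17 over all probes. That background depends on dim probes. Without the dimmer 50%, the median over the 15213 probes left was -0.03 in neuroblasts and 0.02 in glomus cells. Of these probes, 7380 passed in neuroblasts and 5464 in glomus cells, in either direction. The filter removed 7 genes of the list, and 13 were still lower in neuroblasts and 11 in glomus cells. The smallest p-values in neuroblasts belonged to Adcy1 (-2.42 ± 0.25) and Adcy6 (-2.55 ± 0.28), which encode adenylyl cyclases, Grk3, a receptor kinase (-2.11 ± 0.24), and Gnaq, the Gq subunit (-1.63 ± 0.19, adjusted p = 1.05e-05). In glomus cells they belonged to Adcy1 (-2.54 ± 0.25), Gnaq (-1.58 ± 0.19), Grk2, a further receptor kinase (-1.74 ± 0.21), and Gna11, a second Gq-class subunit (-2.18 ± 0.33, adjusted p = 0.000211). The probe of Gnas, the gene for the stimulatory subunit, was lower in neuroblasts than in glomus cells by 2.69 in normoxia and 1.99 in hypoxia (adjusted p = 0.00304 in hypoxia). Kcnj3, a channel opened by inhibitory receptors, was lower in neuroblasts by 1.96 in normoxia. The Gnas probe averaged 4.02 in hypoxic neuroblasts and 3.63 in normoxic neuroblasts, below the medians of those arrays, so the sizes of its differences are uncertain. Which transcripts of the gene this probe measures was not tested.

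**Figure D4:**
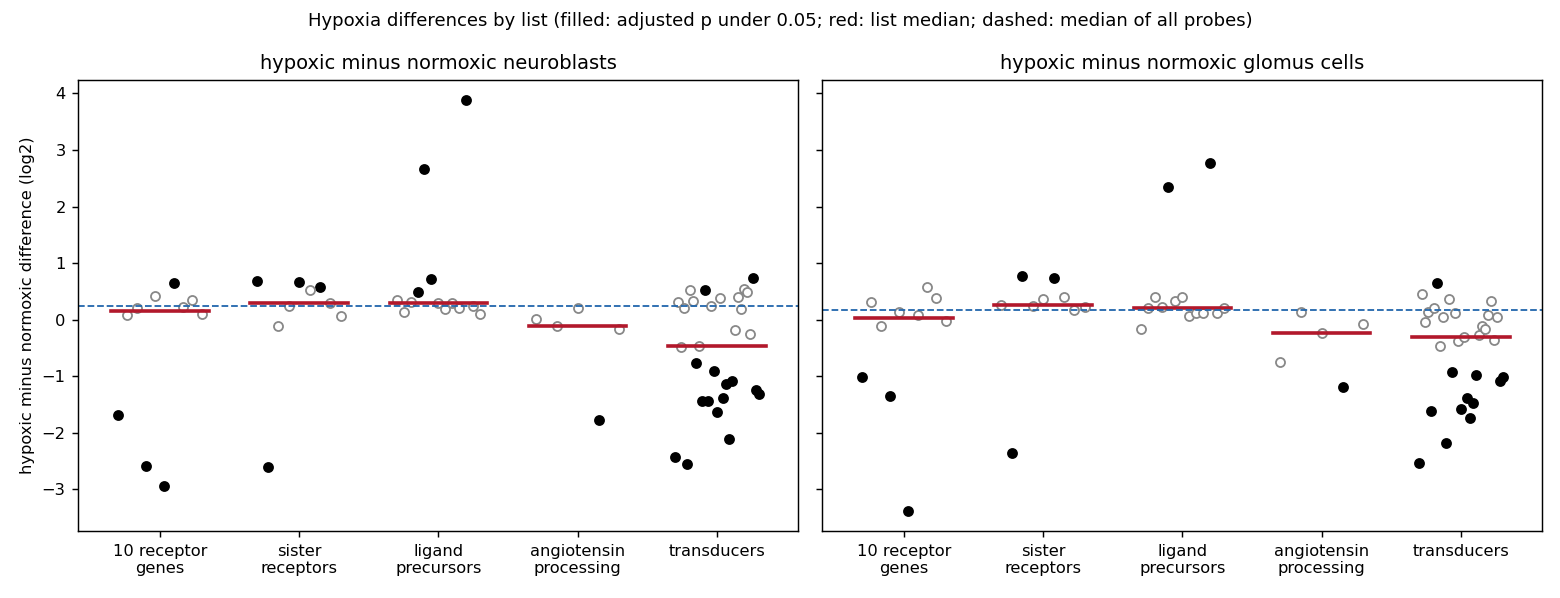
Log2 differences, hypoxic minus normoxic (vertical axis), for each gene of the receptor, sister receptor, ligand, angiotensin processing and transducer lists in neuroblasts and in glomus cells; filled points passed an adjusted p under 0.05, red lines are list medians and dashed lines the median of all probes. Most points of the transducer list lie below the dashed line, and the ligand list holds 2 large rises in each population, Npy and Tac3.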

How the data were processed

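RNA of 16 samples (4 groups of 4 arrays) was measured on an Affymetrix array. The deposited table holds log2 values of 30429 probes, made with Transcriptome Analysis Console per the submitters' processing notes; the sources used here do not give its version, background correction or normalization. The log2 base was inferred from the range of the authors' deposited values, 0.87 to 13.33. The group means were fitted as a linear model with limma 3.58.1 in R 4.3.3 (lmFit, eBayes, 12 residual degrees of freedom) over all probes and 5 comparisons, with two-sided tests. Figures used Python 3.11.15 and matplotlib 3.10.9. The labels do not say whether samples came from separate animals, so p-values measure the spread between these samples.

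Members and lists were chosen with earlier results of these data known. All members were named in every comparison, with the up to 4 list genes of smallest p that passed, the ligands and the sister receptors. The 3 genes of smallest root mean square distance were named for members whose group means spanned at least 1. Probe annotation named 1 gene for 18511 probes, several for 575 and none for 11343; Npy2r had 2 probes of nearly equal values. On simulated data with 200 changed probes, the hypoxia fit in glomus cells found 90% of 2-unit and 53% of 1-unit changes, with 9 false calls. In the real data 5744 probes passed in that comparison, so these rates need not hold there. Alternatives are given below. The labels do not say whether replicate numbers pair samples, and the correlations of 24 same-number pairs, -0.10 to 0.20, cannot decide it.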

Additional observations from a re-analysis of the deposited data

Results flagged for a closer look

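For Npy1r, hypoxic glomus cell replicate 1 stood at 6.17, above the other 3 arrays of its group at 5.55 to 5.63. Its gap to the nearest of them was 0.871 of the group's range, past Dixon's 95% critical value for 4 values. With 40 groups of 4 arrays examined, chance gives such a value in about 1 group in 20. Leaving out this array kept the fall of Npy1r in glomus cells past the threshold.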

How the results depend on the processing

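The 8 member differences that passed were recomputed under up to 26 alternatives, and 7 kept their direction and call under each. The exception was Sstr2 in hypoxic against normoxic neuroblasts, which ranged from 0.37 to 0.90 (adjusted p from 0.00169 to 0.305) and lost its call under 6 of them. The number of members that passed between populations in normoxia was 2, against 1, with array weights, with only the arrays compared and without hypoxic neuroblast replicate 4, the added gene being Sstr2 in each. Leaving out 1 array at a time gave 1 to 2 members there, 0 to 0 between populations in hypoxia, 3 to 3 in hypoxic against normoxic glomus cells, 3 to 5 in hypoxic against normoxic neuroblasts and 0 to 0 for the difference between the effects. Of 42 differences that did not pass, 3 (Sstr2 between populations in normoxia, Sstr4 in glomus cells and Npy2r in neuroblasts) passed under at least 1 alternative and 19 changed sign, the largest of them 0.34. With the replicate block the fall of Sstr1 in glomus cells had an adjusted p of 6.71e-05 and the rise of Sstr2 in neuroblasts one of 0.0235, and no member call changed; of 24 same-number pairs 7 correlated above 0.1, and in 9 the sample correlated best with its own number, so the numbers were not taken as pairing. The block added 1 angiotensin processing gene in the normoxic comparison of populations and 1 in the hypoxia comparison of glomus cells, and 1 ligand and 1 transducer gene in the hypoxic comparison of populations. In the lists, 37 of 47 differences that passed kept their call under every alternative. Leaving out single arrays cost the calls of Npy5r (adjusted p up to 0.0808 without hypoxic glomus replicate 1; also without normoxic glomus replicates 3 and 4), Sstr3 (up to 0.0608 without hypoxic neuroblast replicate 1; also without normoxic neuroblast replicates 3 and 4), Npy4r (up to 0.0744, without replicate 2 of either neuroblast group), Galp (up to 0.092, without any of 5 neuroblast arrays), Gna14 (up to 0.0625, without normoxic neuroblast replicate 1 or hypoxic neuroblast replicate 4) and Plcb2 (up to 0.092, without normoxic neuroblast replicate 3 or hypoxic neuroblast replicate 1 or 2). The angiotensin processing count in glomus cells was 2, against 1, also with centred arrays, array weights, the filter on the dimmer 50% of probes, and without normoxic glomus replicate 2 or hypoxic glomus replicate 1. In normoxia between populations it was 1, against 0, with that filter or without either array, and 2 with array weights. The sister receptors that passed in neuroblasts numbered 1 with centred arrays and 2 with quantile normalization, against 4, and the ligands 2 under either, against 4. The dim probes of Sstr4, Npy2r, Tacr1 and Tacr3 limit what can be read from them.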
